A study of Homo sapiens with 3 samples.

Results

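The enzymes described here conjugate, reduce or oxidise drugs and other foreign compounds outside the cytochrome P450 system. They were chosen by name as 41 genes in 7 classes, namely the glutathione, glucuronosyl, sulfo, and acetyl and methyl transferases, the epoxide hydrolases, the reductases, and the oxidases and dehydrogenases. A gene counted as measured where at least 1 probe set, the group of short probes that stands for a transcript on the array, was annotated to that gene alone. This held for 37 of the 41 genes, with 55 probe sets, out of 11963 genes measured in all. *MGST1*, *UGT1A6*, *UGT2B7* and *SULT1A2* had no such probe set.

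The cells came from a single line, iHCE, made from human corneal epithelium by immortalization with the large T antigen of SV40. They were grown on collagen-coated permeable filters, first submerged and then at an air-liquid interface with ascorbic acid added, in a medium that also held serum, insulin, cholera toxin, epidermal growth factor and dimethylsulfoxide. RNA of 3 cultures, which the study calls independent replicates, was hybridised to Affymetrix human gene expression arrays, 1 array per culture. Cultures 1, 2 and 3 had electrical resistances of 489, 439 and 468 Ω·cm2. All 3 cultures had the same treatment, no second group was analysed here, and the results are therefore levels and their spread between cultures.

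Conjugating enzymes attach glutathione, glucuronic acid, sulfate, an acetyl group or a methyl group to a compound, which mostly makes it more water soluble and easier to export. Reductases and oxidases change functional groups on the compound, and epoxide hydrolases open reactive epoxide rings with water. In the cornea these enzymes meet drugs given as eye drops, and several of them are known targets of the transcription factor NRF2, which binds the antioxidant response element.

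The values are log2 expression values after RMA, and probe sets differ in affinity, so the level of one gene is not set against that of another. A gene was called above background where, on each of the 3 arrays, it exceeded the 95th percentile of 56 genes of other tissues on that array, which came to 7.06, 6.99 and 7.13 in cultures 1, 2 and 3. Of these 56 genes, 2 were themselves above background. Each gene was read at its probe set with the highest mean. The general epithelial markers were above background in 10 of 10 genes, the corneal epithelial markers in 0 of 8, and the markers of keratocytes, melanocytes, immune cells and endothelium in 0 of 7, 0 of 5, 0 of 6 and 0 of 5. The labelled corneal identity was thus not borne out by the corneal markers measured. Among them were the corneal keratins *KRT3* and *KRT12*, whose means were 4.86 ± 0.10 and 5.26 ± 0.16 (SD, n = 3). *PAX6* read 7.11, 6.55 and 6.83 and passed on the array of culture 1 alone. The study itself reported all 8 of these markers as lower in this line than in corneal epithelial tissue.

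Of the 37 measured enzymes 14 were above background (37.8%), against 45.3% of all measured genes. They were *GSTM1*, *GSTM2*, *GSTM3*, *GSTP1*, *GSTO1*, *MGST2*, *MGST3*, *SULT1A1*, *NAT1*, *TPMT*, *NNMT*, *CBR1*, *CBR3* and *ADH5*. The other 23 were above the threshold on none of the 3 arrays. The median of the mean levels was 6.33 over the 37 enzymes and 6.98 over all measured genes, a description across probe sets of unlike affinity and not a comparison of amounts. By class the count above background was 7 of 11 glutathione transferases, 0 of 3 glucuronosyl and related glycosyl transferases, 1 of 5 sulfotransferases, 3 of 4 acetyl and methyl transferases, 0 of 2 epoxide hydrolases, 2 of 6 reductases and 1 of 6 oxidases and dehydrogenases.

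**Figure D1:**
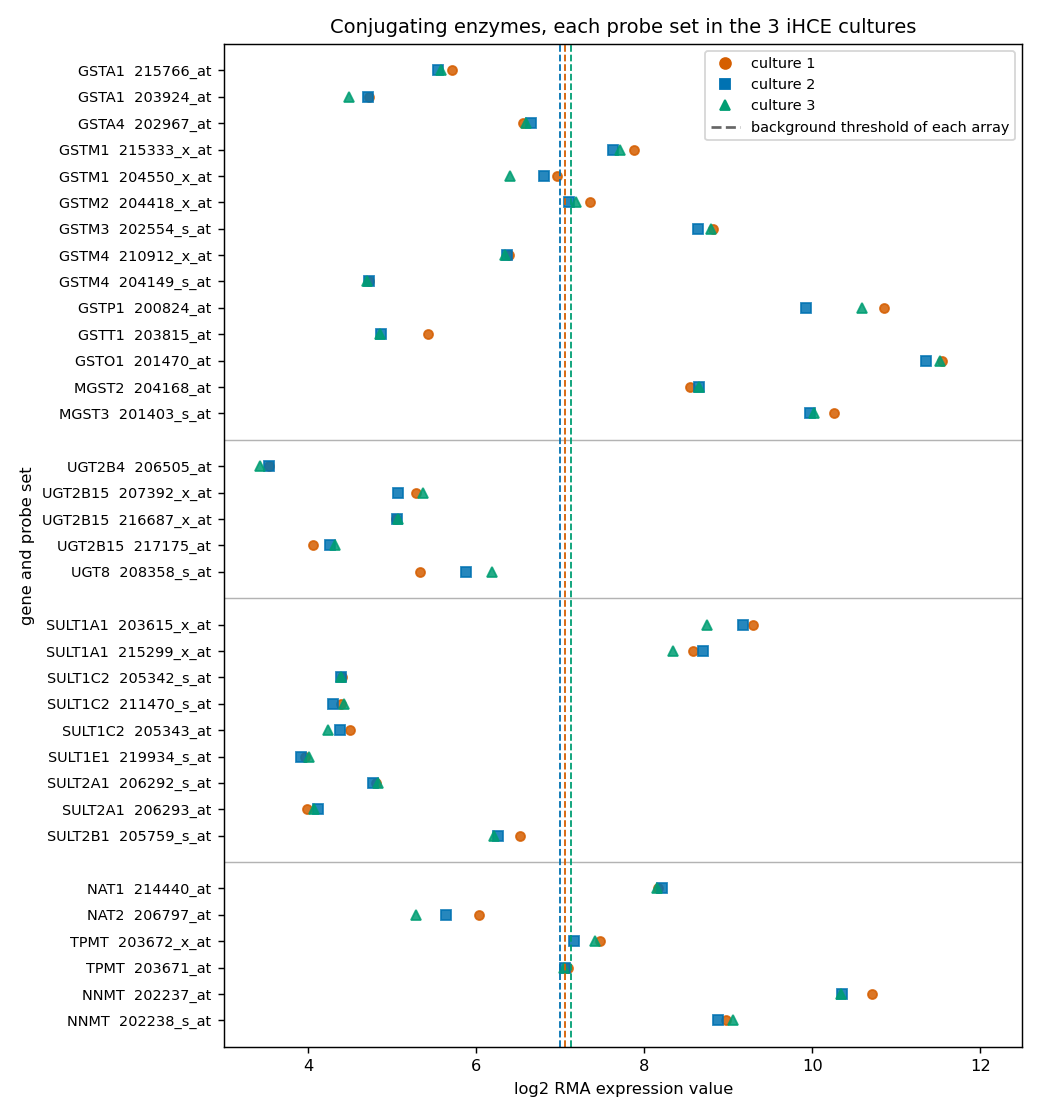
Log2 RMA value (x axis) of every probe set of the conjugating enzymes (y axis, one row per gene and probe set) in cultures 1, 2 and 3, with dashed lines at the background thresholds of 7.06, 6.99 and 7.13. The rows of *GSTM3*, *GSTP1*, *GSTO1*, *MGST2*, *MGST3*, *SULT1A1*, *NAT1* and *NNMT* lie to the right of all 3 lines, while every glucuronosyl transferase row lies to the left.

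Promoters were examined because the antioxidant response element links many of these genes to NRF2. The core of that element, TGACNNNGC, was searched on both strands from 250 bases before to 50 bases after the RefSeq start of each gene (GRCh38.p14). A promoter was given for 30 of the 41 enzymes, and 6 of the 30 (20%) held the core, against 14.9% of 9563 measured genes. Among enzymes above background it was in 4 of 9 promoters (44.4%), and among those not above in 2 of 18 (11.1%). Over all measured genes the shares were 16.4% of 4595 promoters of genes above background and 13.5% of 4968 of the others. These are small counts and a description of letters in a window, not of binding.

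The 6 enzymes whose window held the core are shown because they are all the matches found, each 5′ to 3′ on the gene's own strand and ending before the start of transcription. The capitals mark the core. *GSTA4* (chr6:52995285-52995333, minus strand) and *SULT1C2* (chr2:108288793-108288881, plus strand) were not above background. *GSTM1* (chr1:109687612-109687700), *GSTP1* (chr11:67583706-67583794), *GSTO1* (chr10:104254642-104254779) and *CBR1* (chr21:36069825-36069913), all on the plus strand, were above it.
GSTA4: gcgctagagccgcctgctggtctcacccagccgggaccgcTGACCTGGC
GSTM1: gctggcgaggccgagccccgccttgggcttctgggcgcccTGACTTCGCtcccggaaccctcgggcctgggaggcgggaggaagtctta
GSTP1: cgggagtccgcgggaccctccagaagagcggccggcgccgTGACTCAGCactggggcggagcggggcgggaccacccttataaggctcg
GSTO1: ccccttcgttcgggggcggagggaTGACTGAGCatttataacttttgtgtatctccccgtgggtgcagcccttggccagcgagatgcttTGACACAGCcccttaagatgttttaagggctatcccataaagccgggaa
SULT1C2: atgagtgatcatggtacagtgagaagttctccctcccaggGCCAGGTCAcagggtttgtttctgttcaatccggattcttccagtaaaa
CBR1: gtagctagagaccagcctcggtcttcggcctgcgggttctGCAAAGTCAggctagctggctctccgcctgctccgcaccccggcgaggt
In *SULT1C2* and *CBR1* the core reads on the opposite strand, so the capitals show its reverse complement. *GSTO1* held the core at 2 positions, beginning at -226 and -161 counted from the start. In *GSTP1* it began at -66 and overlapped the heptamer TGACTCA, the binding motif of AP-1. In *GSTA4* it ended at the last base before the start.

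The aryl hydrocarbon receptor is the other classical regulator of drug enzymes, and the core of its binding motif, GCGTG, was present in 10 of 30 enzyme promoters (33.3%) against 46.6% of those of all measured genes. It was in 4 of 9 promoters of enzymes above background (44.4%) and in 5 of 18 of those not above (27.8%), while among all genes above and not above background the shares were 53% and 40.6%. *CBR1* was the enzyme of this set with both cores in its promoter, and in none of the 6 promoters printed did the antioxidant core overlap GCGTG. *ADH5* held GCGTG at 3 positions.

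**Figure D2:**
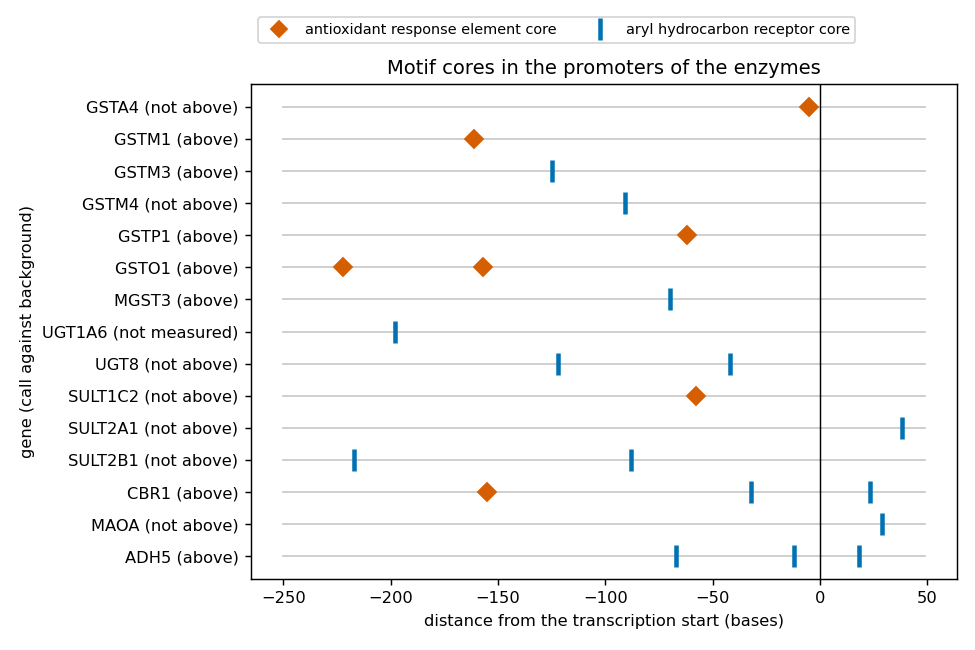
Distance from the transcription start in bases (x axis) of the antioxidant response element core (diamonds) and of the aryl hydrocarbon receptor core (bars) in the promoters of the enzymes that held at least 1 of them (y axis, with the call against background). *GSTM1*, *GSTP1*, *GSTO1* and *CBR1*, all above background, carry diamonds upstream of the start, as do *GSTA4* and *SULT1C2*, which were not above it.

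The glutathione transferases add glutathione to electrophiles, and most of the measured ones were above background. *GSTP1*, the pi class enzyme typical of epithelia outside the liver, read 10.86, 9.92 and 10.59 in cultures 1, 2 and 3, a mean of 10.46 ± 0.48 (SD, n = 3). It was low in culture 2 and high in the others, while its lowest value still exceeded the threshold by 2.93. *GSTO1*, an omega class enzyme that also reduces dehydroascorbate, read 11.54, 11.35 and 11.52, or 11.47 ± 0.11 (SD, n = 3). These values lay far closer together than those of *GSTP1*.

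The membrane-bound members of the class act in lipid peroxide and leukotriene metabolism as well as in conjugation. *MGST3* read 10.26, 9.97 and 10.02, with a mean of 10.08 ± 0.15 (SD, n = 3). *MGST2* read 8.54, 8.66 and 8.65, with a mean of 8.62 ± 0.06 (SD, n = 3). Culture 1 was the high one for *MGST3* and the low one for *MGST2*, in both cases by less than the distance to the threshold.

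The mu class genes lie in 1 cluster in the order *GSTM4*, *GSTM2*, *GSTM1* and *GSTM3*, with *GSTM5*, which is outside the chosen set, between *GSTM1* and *GSTM3*, and their sequences are closely related. *GSTM3* read 8.82, 8.64 and 8.79 (8.75 ± 0.10, SD, n = 3), more than 1.6 above the threshold on each array. *GSTM1*, a gene deleted in many people, read 7.88, 7.63 and 7.71 (7.74 ± 0.13, SD, n = 3) on its brighter probe set, while its other probe set read 6.96, 6.80 and 6.40 and passed on 0 arrays. *GSTM2* read 7.36, 7.10 and 7.19 (7.22 ± 0.13, SD, n = 3), and its smallest distance above the threshold, in culture 3, was 0.06. The call of *GSTM2* therefore rested on a margin smaller than its own SD, and it was lost with stricter thresholds. *GSTM4* was not above background, with 6.39, 6.37 and 6.34 on the brighter of its probe sets. All probe sets of these mu genes carry the mark _x_at or _s_at, by which the manufacturer names probe sets that can match several transcripts. Signal from another mu gene on these probe sets could thus not be excluded, and which transcripts they match was not tested.

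Of the remaining glutathione transferases *GSTA4*, which conjugates the lipid peroxidation product hydroxynonenal, came nearest to background with 6.56, 6.65 and 6.60 (6.60 ± 0.05, SD, n = 3). *GSTA1*, the main alpha class enzyme of liver, had means of 5.61 and 4.64 on its probe sets. *GSTT1*, a theta class gene also deleted in many people, read 5.42, 4.87 and 4.86. None of the 3 exceeded the threshold on any array.

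The glucuronosyl transferases, which transfer glucuronic acid from UDP-glucuronate, gave no gene above background. *UGT2B4* read 3.54, 3.54 and 3.43, and *UGT2B15*, which glucuronidates androgens, had means from 4.22 to 5.24 over its 3 probe sets. *UGT8*, which transfers galactose to ceramide rather than glucuronic acid to drugs, read 5.33, 5.88 and 6.19. *UGT1A6*, the member known for small phenols, was present only in 5 probe sets annotated to 6 or 9 genes of the UGT1A cluster, whose transcripts share their 3′ exons. Of these 1 read 7.30, 7.15 and 6.92 and passed on 2 arrays, and another read 7.23, 6.99 and 6.97 and passed on 1 array. The other 3 were under the threshold on every array, with means of 6.13, 5.53 and 5.22. No UGT1A probe set thus passed on all 3 arrays, and no single UGT1A gene could be read from them.

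Of the sulfotransferases, which transfer sulfate from PAPS, *SULT1A1* was above background. This phenol sulfotransferase read 9.29, 9.17 and 8.74 (9.07 ± 0.29, SD, n = 3), and its other probe set read 8.58, 8.70 and 8.35, also above on all 3 arrays. Culture 3 was the low one on both. Both carry the mark _x_at, so its near-copy *SULT1A2*, which has no probe set of its own, may contribute. *SULT1A3* and *SULT1A4*, outside the chosen set, also had no probe set of their own. Which of these transcripts the probe sets match was not tested. *SULT2B1*, the cholesterol sulfotransferase of stratified epithelium, read 6.52, 6.26 and 6.21 and was not above background, nor was *SULT2A1*, the hydroxysteroid enzyme of liver and adrenal, with 4.81, 4.77 and 4.84. The oestrogen sulfotransferase *SULT1E1* read 3.97, 3.92 and 4.01. The 3 probe sets of *SULT1C2* had means between 4.37 and 4.40.

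The acetyl and methyl transferases were above background but for *NAT2*. *NAT1*, the arylamine acetyltransferase found in most tissues, read 8.17, 8.20 and 8.15 (8.18 ± 0.03, SD, n = 3), the smallest SD among the 14 enzymes above background. Its neighbour *NAT2*, the liver and gut form that sets the acetylator type, read 6.03, 5.64 and 5.29 (5.65 ± 0.37, SD, n = 3). The call thus split between these paralogues. *NNMT*, which methylates nicotinamide, read 10.71, 10.35 and 10.34 (10.46 ± 0.21, SD, n = 3), and its other probe set read 8.98, 8.88 and 9.06. *TPMT*, which inactivates thiopurine drugs, read 7.48, 7.17 and 7.41 (7.35 ± 0.16, SD, n = 3). Its other probe set read 7.09, 7.05 and 7.04, above the thresholds of cultures 1 and 2 and under that of culture 3. *TPMT* lay close to background on both probe sets.

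**Figure D3:**
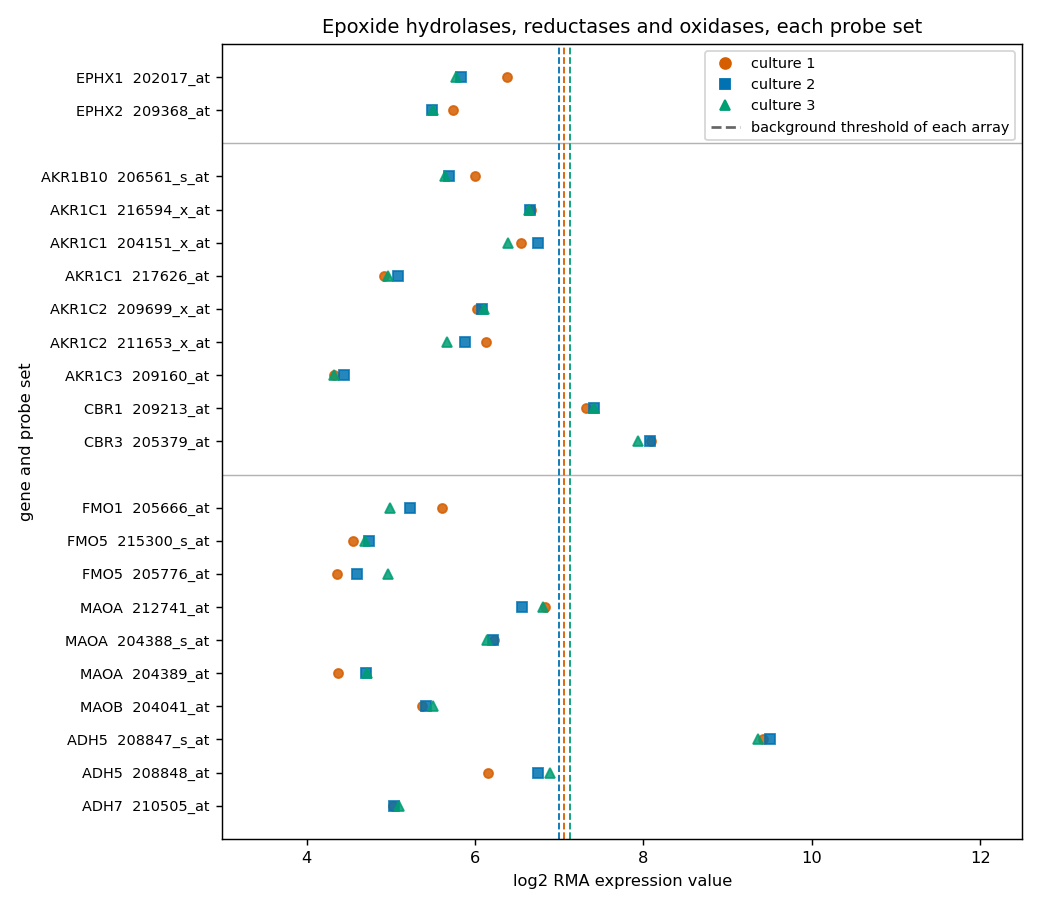
Log2 RMA value (x axis) of every probe set of the epoxide hydrolases, reductases, and oxidases and dehydrogenases (y axis) in cultures 1, 2 and 3, with dashed lines at the background thresholds of 7.06, 6.99 and 7.13. *CBR1*, *CBR3* and 1 of the 2 probe sets of *ADH5* lie to the right of all 3 lines and every other row lies to the left.

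Neither epoxide hydrolase was above background. *EPHX1*, the microsomal enzyme that acts on drug epoxides, read 6.39, 5.83 and 5.78, with an SD of 0.34 (n = 3). *EPHX2*, the soluble enzyme that acts on fatty acid epoxides, read 5.74, 5.49 and 5.50 (5.57 ± 0.14, SD, n = 3). For both genes culture 1 was the high one.

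Among the reductases the carbonyl reductases, which lie close together in the genome and reduce quinones and carbonyl drugs, were both above background. *CBR3* read 8.09, 8.08 and 7.94 (8.03 ± 0.09, SD, n = 3). *CBR1* read 7.32, 7.41 and 7.41 (7.38 ± 0.05, SD, n = 3), at least 0.26 above the threshold. The aldo-keto reductases, which reduce aldehydes, ketones and steroids, were not. *AKR1C1* came nearest, with 6.66, 6.66 and 6.64 on its brightest probe set, 6.54, 6.74 and 6.39 on another, and 4.92, 5.09 and 4.97 on the only one without a mark. *AKR1C2* had means of 6.07 and 5.89, *AKR1C3* a mean of 4.36 and *AKR1B10* a mean of 5.78. The 3 AKR1C genes form a cluster of close copies, and the neighbours shared the same call.

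Of the oxidases and dehydrogenases *ADH5* was above background. This enzyme oxidises the glutathione adduct of formaldehyde and is found in all tissues. It read 9.43, 9.50 and 9.36 (9.43 ± 0.07, SD, n = 3) on a probe set marked _s_at. Its other probe set read 6.15, 6.74 and 6.89 (6.59 ± 0.39, SD, n = 3), under the threshold on each array, so the call depended on the probe set, and the means differed by 2.84. Its relative *ADH7*, the retinol-active form of stomach and surface epithelia, read 5.03, 5.04 and 5.10.

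The monoamine oxidases and the flavin monooxygenases, which oxidise amines and soft nucleophiles, were not above background. *MAOA* read 6.83, 6.56 and 6.81 (6.73 ± 0.15, SD, n = 3) on its brightest probe set, between 0.23 and 0.44 under the thresholds, and its other probe sets had means of 6.19 and 4.60. *MAOB*, its neighbour on the X chromosome, read 5.37, 5.41 and 5.50. *FMO1*, the fetal liver and kidney form, read 5.60, 5.23 and 4.99, and *FMO5* had means of 4.67 and 4.64 on its probe sets.

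Genes known from liver, for *FMO1* from fetal liver and kidney, were a separate list. It was made of *GSTA1*, *UGT2B4*, *UGT2B7*, *UGT2B15*, *SULT2A1*, *NAT2*, *FMO1* and *FMO5*. Of the 7 measured, 0 were above background, against 45.3% of all measured genes. The median of their mean levels was 5.24, against 6.98 over all measured genes. The list was picked from the enzymes with earlier results of these data known. Enzymes above background such as *NNMT* and *SULT1A1* were not placed on it, so its count does not describe liver enzymes as a group. Of 9 hepatocyte markers 1 was above background, *CYP3A4*, on a probe set marked _x_at, at 7.65, 8.03 and 7.81.

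Of the 55 probe sets of the enzymes 16 were above background (29.1%), against 36.8% of all probe sets with 1 gene. Among the 14 enzymes with 2 or more probe sets, the calls differed between probe sets for *GSTM1*, *TPMT* and *ADH5*, all were above for *SULT1A1* and *NNMT*, and none was above for the other 9. Of the enzymes above background *GSTM1*, *GSTM2*, *GSTM3*, *MGST3* and *SULT1A1* were measured only by probe sets marked _x_at or _s_at. Without the marked probe sets the thresholds were computed again and came to 6.83, 6.71 and 6.54 in cultures 1, 2 and 3. Against these, 8 of the 26 enzymes still measured were above background, and 41.4% of all genes. They were *GSTP1*, *GSTO1*, *MGST2*, *NAT1*, *TPMT*, *NNMT*, *CBR1* and *CBR3*. *TPMT* passed only with these lower thresholds, since its unmarked probe set was under the main threshold in culture 3.

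The spread of the enzymes above background between the cultures was near that of all genes above background. Their SD ran from 0.03 for *NAT1* to 0.48 for *GSTP1*, with a median of 0.12, against 0.14 over all genes above background. A range of 0.5 log2 or more between the highest and the lowest culture was seen in 2 of 14 enzymes (14.3%), against 16.9% of all genes above background. These were *GSTP1*, with a range of 0.94, and *SULT1A1*, with a range of 0.55. Each of these rested on single cultures, since *GSTP1* fell under this limit without culture 2, and *SULT1A1* without culture 1 or without culture 3, which left a count of 1 each time. No enzyme had a range of 1 log2 or more, against 1.33% of all genes above background.

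Culture 1 gave the highest of the 3 values in 10 of the 14 enzymes above background (71.4%), culture 2 in 4 and culture 3 in 0. Over all genes above background culture 1 was highest in 39.8%, culture 2 in 27.9% and culture 3 in 32.3%. Culture 1 was also the lowest in 39.8% of all these genes, culture 2 in 33.9% and culture 3 in 26.3%. Of the 14 enzymes 2 were lowest in culture 1, 7 in culture 2 and 5 in culture 3. The median deviation of the 14 enzymes from the mean of the cultures was 0.10 in culture 1, -0.11 in culture 2 and -0.02 in culture 3. The enzymes without their highest value in culture 1 were *MGST2*, *NAT1*, *CBR1* and *ADH5*, which were highest in culture 2. This pattern was noticed after the values were seen. The array of culture 1 also stood somewhat apart, with r of 0.988 and 0.987 across probe sets to the arrays of cultures 2 and 3, which had r of 0.994 to each other. The *GAPDH* control probe sets read 1.64, 1.34 and 1.28 higher at the 3′ than at the 5′ end in cultures 1, 2 and 3, with culture 1 the highest. For *ACTB* the same difference was 2.987, 3.254 and 3.003, with culture 1 the lowest. Such differences depend on RNA and labelling quality, and their part in the pattern was not tested.

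**Figure D4:**
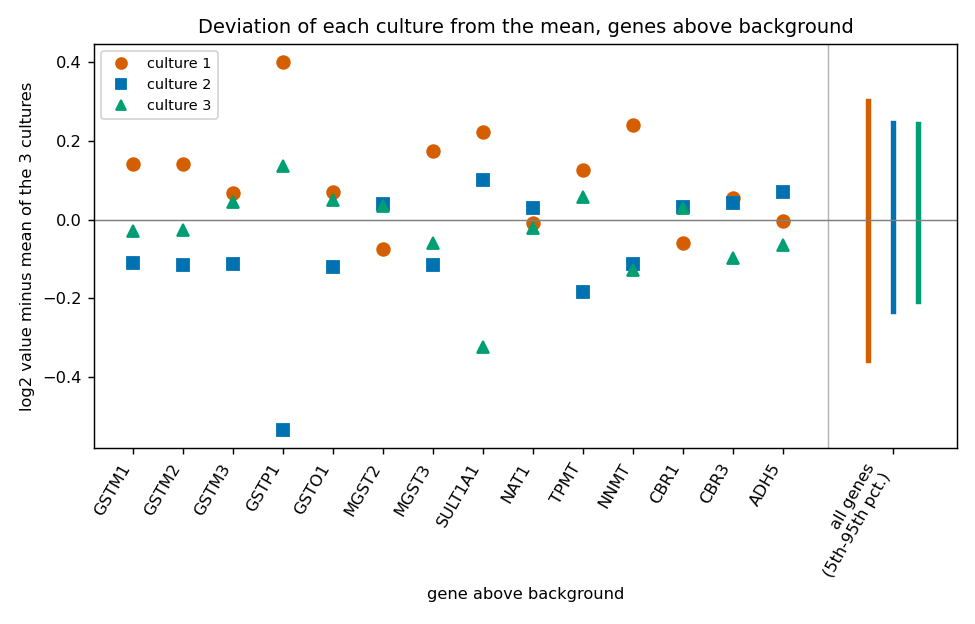
Log2 value in each culture minus the mean of the 3 cultures (y axis) for the 14 enzymes above background (x axis), with bars at the right for the 5th to the 95th percentile of all genes above background in each culture. Culture 1 is the top symbol for 10 of the 14 enzymes, and *GSTP1* has the widest spread, with a range of 0.94.

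Other enzymes of the same classes were above background in 10 of 37 measured genes (27%, against 45.3% of all measured genes). By the naming rule these included the aldehyde reductases *AKR7A2* (9.55, 9.33 and 9.55) and *AKR7A3* (7.45, 7.22 and 7.40) and the short-chain reductase *DHRS2* (10.62, 9.43 and 9.73), whose high culture was culture 1, while the alcohol dehydrogenases *ADH1A*, *ADH1B* and *ADH1C* had means of 5.00, 4.96 and 4.24. The rest were named after their values were seen. They were the quinone reductases *NQO1* (10.93, 10.75 and 10.56) and *NQO2*, the tyrosylprotein sulfotransferases *TPST1* and *TPST2*, and the glutathione transferases *GSTT2*, *GSTZ1* and *GSTK1*. By class the counts of further enzymes above background were 3 of 5 glutathione transferases, 0 of 3 glucuronosyl transferases, 2 of 4 sulfotransferases, 0 of 5 acetyl and methyl transferases, 0 of 1 epoxide hydrolase, 5 of 11 reductases and 0 of 8 oxidases and dehydrogenases. The acetyl and methyl transferases thus had 3 of 4 above background in the chosen set and 0 of 5 outside it. Both further sulfotransferases above background were *TPST1* and *TPST2*, which act on proteins, while *SULT1B1* and *SULT4A1* were not above it.

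The genes that supply the cosubstrates of conjugation and reduction were above background in 12 of 15 measured (80%, against 45.3% of all measured genes). The median of their mean levels was 9.41. *GCLC*, the catalytic subunit of the first enzyme of glutathione synthesis, read 8.44, 8.25 and 8.36. *AHCY*, which removes the product of methyl transfer, had a mean of 11.11 ± 0.10, and *ACLY*, a source of acetyl-CoA, a mean of 10.22 ± 0.14 (SD, n = 3 for both). The exceptions were *PAPSS2*, one of the enzymes that make PAPS (6.03 ± 0.12), the malic enzyme *ME1* (6.83 ± 0.15, SD, n = 3 for both), and *GSR*, glutathione reductase, which read 6.93, 7.23 and 7.21 and passed on 2 arrays.

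Further NRF2 targets were above background in 9 of 15 measured genes (60%, against 45.3% of all measured genes). The list shares *GCLC*, *GCLM*, *GSR*, *ME1* and *PGD* with the cosubstrate genes, and *NQO1* with the other enzymes of the same classes. *ABCC1*, which exports glutathione conjugates, had a mean of 8.51 ± 0.15, and *FTL*, ferritin light chain, a mean of 12.81 ± 0.26 (SD, n = 3 for both). *HMOX1*, haem oxygenase, read 6.53, 6.18 and 6.18, and *ABCC2*, a further conjugate exporter, had a mean of 4.97 ± 0.19 (SD, n = 3). Neither was above background.

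Of the regulators 4 of 8 measured were above background (50%), near the 45.3% of all measured genes. *NFE2L2*, which encodes NRF2, read 10.08, 9.73 and 9.80, and *KEAP1*, its inhibitor, read 8.13, 8.36 and 8.30. *BACH1*, a repressor at the same element, and *MAFG*, a partner of NRF2, had means of 7.89 ± 0.27 and 8.49 ± 0.23 (SD, n = 3). *AHR*, the aryl hydrocarbon receptor, read 7.11, 6.92 and 7.04 and passed on the array of culture 1 alone. Its partner *ARNT* and the nuclear receptors *NR1I3* and *PPARA* had means of 6.46, 5.38 and 4.68 and passed on none.

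**Figure D5:**
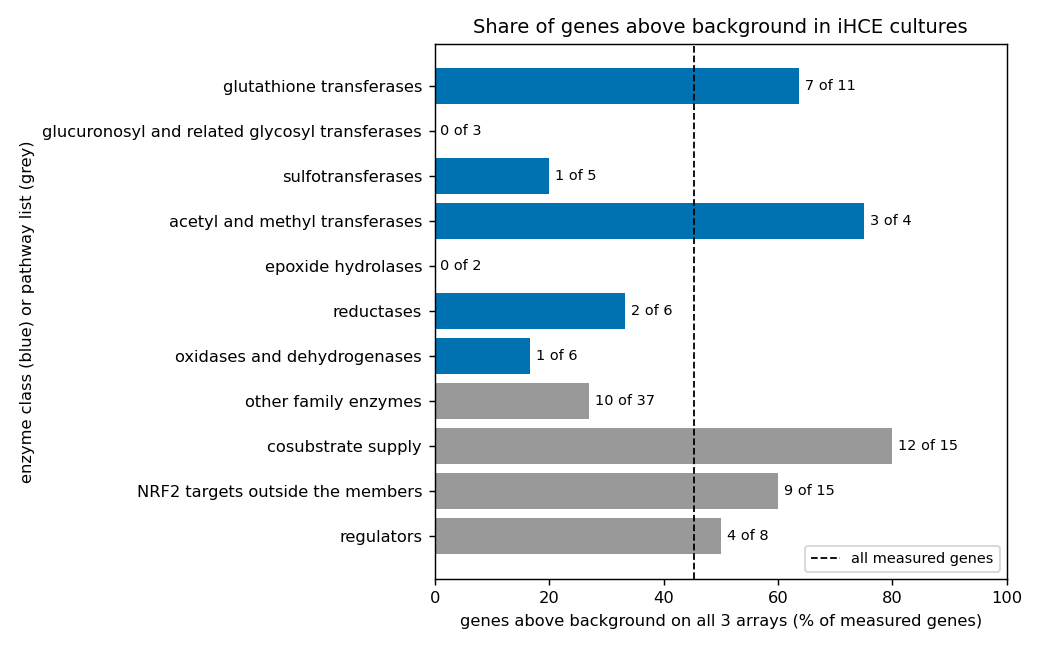
Share of measured genes above background on all 3 arrays in % (x axis) for the 7 enzyme classes (blue) and the 4 pathway lists (grey) on the y axis, with the count beside each bar and a dashed line at the 45.3% of all measured genes. The bars of the glutathione transferases, the acetyl and methyl transferases, cosubstrate supply, NRF2 targets and regulators pass the line, and the glucuronosyl transferases and epoxide hydrolases have none above background.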

How the data were processed

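Total RNA of 3 iHCE cultures was measured on 1 array each. Per the submitters' processing notes, the authors used RMA under R 2.8.0 and deposited log2 expression values of 22283 probe sets. RMA normalizes between arrays and compresses low values, and per the study's methods these arrays were imported and normalized together with arrays of corneal tissue, which were not analysed here. For that run the study re-annotated the probes to Entrez genes. The deposited table holds probe sets instead, so it is not the gene-level output of that run. Whether the deposited values were normalized together with the tissue arrays was not stated in the sources. Arrays give no read depth, and their number limits the precision.

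Of the probe sets 19071 were annotated to 1 gene, 1043 to several and 2169 were not listed. Symbols were updated through the RefSeq table of GRCh38.p14, and 12 symbols without an entry stayed as annotated. Each gene was read at its probe set with the highest mean and called against the 95th percentile of 56 measured of 66 listed genes of other tissues. As no other group was analysed here, no group test was made. The SD over the 3 cultures covers both culture and technical variation.

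The members and lists were chosen with earlier results of these data known. All members were named, and of each pathway list the exceptions where 5 or fewer, or else the first 3 above and the first 3 not above background in alphabetical order. Alternatives were other thresholds, the mean over probe sets, unmarked probe sets alone, quantile normalization, each culture left out, and a one-sided limma test with an adjusted p under 0.05. Python 3.11.15 (numpy 2.4.6, pandas 2.3.3, matplotlib 3.10.9) and R 4.3.3 with limma 3.58.1 were used. The calls were also run on simulated data. No simulated gene was set close to the threshold there, so calls near it were not tested.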

Additional observations from a re-analysis of the deposited data

How the results depend on the processing

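Over 11 alternatives the number of enzymes above background lay between 8 and 15. Without probe sets marked _x_at or _s_at it was 8 of 26, and 8 of 28 probe sets were above. Fewer genes and probe sets were tested there by construction, against lower thresholds. With the highest value of the panel, or the panel median plus 3 scaled MADs, the count was 11, since *GSTM2*, *TPMT* and *CBR1* were lost, and with the limma test it was 13, without *GSTM2*. *ADH5* was lost without marked probe sets, and *GSTA4* was gained with the mean over probe sets, for a count of 15. The value of *GSTA4* itself did not change there, while the thresholds fell to 6.48, 6.39 and 6.41. The other 10 enzymes above background kept their call in each alternative that measured them, and 22 were above background in none. The share of all genes above background moved between 36.8% and 53.7%.

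The count of enzymes with a range of 0.5 log2 or more was 1 with the mean over probe sets and 1 without marked probe sets. Leaving out each replicate gave 1 to 1, and a limit of 1 log2 gave 0. The share of promoters with the antioxidant core was 10% when a further A was required after it, against 3.23% of all measured genes. Culture 1 was the highest in 62.5% to 72.7% of the enzymes, against 37.7% to 43.8% of all genes, in alternatives added after seeing the data. The identity between paralogous proteins was planned and not run, as no protein sequences were used here. With 3 arrays of 1 group, values near the thresholds have no firm call. No paired analysis was possible because there was 1 group.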

Other observations

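Among the 23 enzymes not above background, 5 had a range of 0.5 log2 or more between the cultures (21.7%), against 15.1% of all genes not above background. They were *GSTT1* (range 0.57), *UGT8* (0.86), *NAT2* (0.74), *EPHX1* (0.61) and *FMO1* (0.61). *UGT8* was lowest in culture 1, and the other 4 were highest there. RMA compresses values under background, so these ranges are given as values of the probe sets alone.

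The share above background also differed with the number of probe sets of a gene. Of the enzymes with 1 probe set 9 of 23 were above background, against 37.9% of 7653 genes with 1 probe set. Of those with 2 or more, 5 of 14 were above background, against 58.5% of 4310 genes with 2 or more.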
